A study of Mus musculus with 16 samples.

Results

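Genes that encode proteoglycans of the developing cortical wall were described in single cells of the mouse forebrain. The list held 9 genes, taken by symbol: the lecticans Vcan, Ncan and Bcan, the glypicans Gpc1, Gpc2, Gpc4 and Gpc6, the syndecan Sdc3 and the link protein gene Hapln1. Of these, 8 were matched to rows of a matrix with 14498 genes, and Hapln1 was not analysed here. The cells came from embryos of CD1 mice, an outbred strain, of wild-type genotype at embryonic day 15.5, and were prepared with the SureCell droplet workflow. Nothing in the labels tells the 16 samples apart by strain, genotype, tissue or age, so they form 1 group, with no treatment and no mutant allele. The source label reads forebrain while the study design speaks of cerebral cortex, and markers of the ganglionic eminences, striatum and choroid plexus were found among the cells. Their values were deposited as 1 pooled matrix that does not say which sample a cell came from.

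A proteoglycan is a core protein that carries long sulfated sugar chains. Lecticans carry chondroitin sulfate chains, are secreted and bind hyaluronan, and link proteins hold lecticans and hyaluronan together. Glypicans are tied to the outer membrane by a lipid anchor and syndecans span the membrane, and both carry mainly heparan sulfate chains that bind growth factors such as Fgf and Wnt proteins. In the embryonic cortex, radial glia divide along the ventricle and give rise to intermediate progenitors and neurons, young excitatory neurons migrate outward, deep layer neurons are born before upper layer neurons, and interneurons arrive from the ganglionic eminences below.

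The matrix held 5777 cells and 21609944 counts of unique molecular identifiers (UMIs), each standing for a captured RNA molecule, with a median of 3258 UMIs per cell and a range of 1111 to 17398. After 4 cells rich in globin RNA were set apart, 5773 cells formed 25 clusters, drawn without the genes described here. Marker genes named 18 clusters, and 7 clusters with 1555 cells stayed unnamed. The classes used below were radial glia-like (547 cells), intermediate progenitor-like (379), migrating excitatory neuron-like (936), deep layer neuron-like (627), upper layer neuron-like (274), ganglionic eminence progenitor-like (300), interneuron-like (693), striatal neuron-like (269) and Cajal-Retzius cell-like (74). Markers fixed for each class were compared with all other cells: Eomes had 2504 UMIs per 1000000 UMIs of the class (CPM) in intermediate progenitor-like cells and 208 CPM in all other cells, Pou3f1 had 321 CPM in upper layer neuron-like cells and 83.7 CPM elsewhere, and Reln had 8648 CPM in Cajal-Retzius cell-like cells and 85.2 CPM elsewhere. In the upper layer class 6 of the 12 markers were raised. Among the others, Cux2 had 17.2 CPM there and 15.2 CPM elsewhere, Lmo4 had 201 and 260 CPM, Cited2 had 184 and 286 CPM, and Plxnd1, Cux1 and Pou3f3 did not reach the limit either.

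The cells also lay in 2 consecutive runs of 3651 and 2122 cells, which the labels do not name, and values of the 8 genes in each run are given where they bear on a result. The first run held 17 and the second 257 of the upper layer neuron-like cells, while the first held 287 and the second 13 of the ganglionic eminence progenitor-like cells. For each class, UMIs were summed over its cells and scaled to CPM. Cells of 1 pool are not replicates, so intervals are 95% Poisson or exact conditional binomial intervals that cover counting error only, no test between conditions was possible, and a gene was called higher or lower where classes were at least 1.5-fold apart and held at least 50 UMIs of it in sum. Pairs of single clusters compared below were picked after their values were seen, and their intervals do not cover that choice. A total over a class cannot tell more RNA per cell from more cells with the RNA. UMIs were not scaled to transcript length, so each gene is compared between classes and not with other genes.

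**Figure D1:**
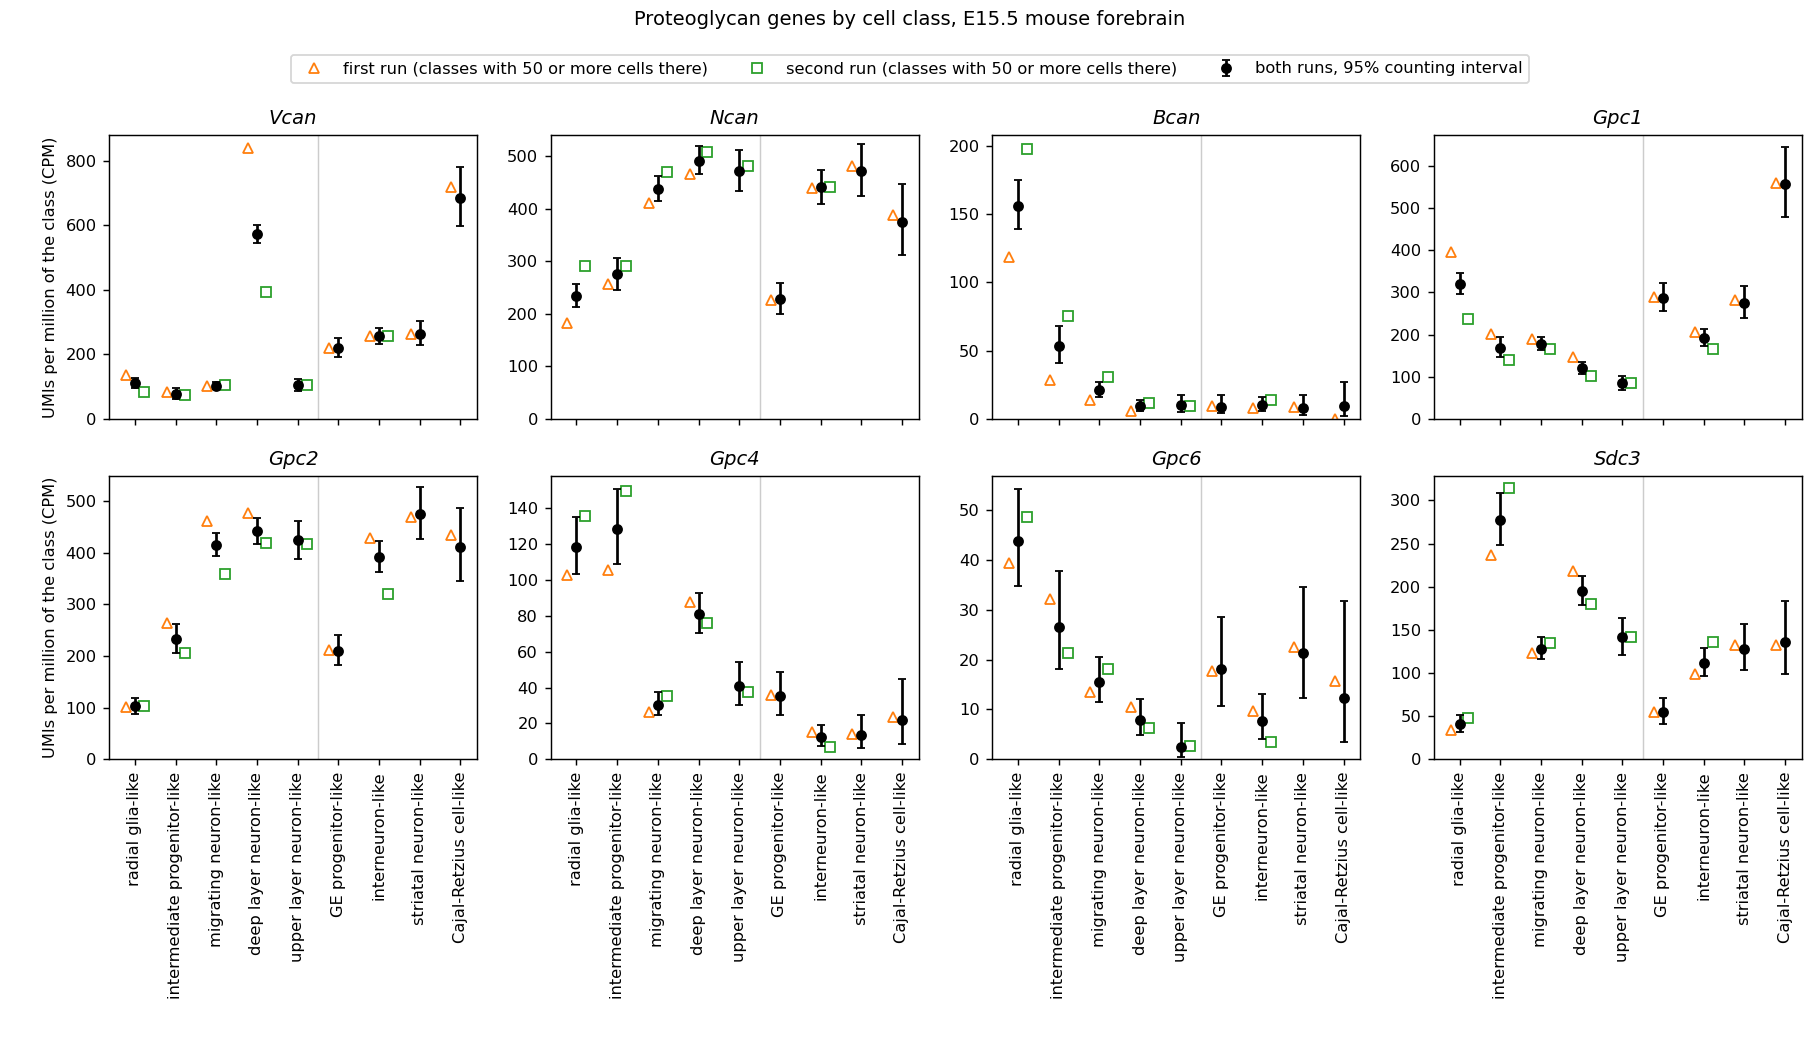
Level of each of the 8 genes in 9 cell classes, in UMIs per 1000000 of the class (CPM). Black points with bars are both runs with the 95% counting interval, open triangles the first run and open squares the second run (classes with at least 50 cells in that run). Vcan stands highest in Cajal-Retzius cell-like and deep layer neuron-like cells, Bcan in radial glia-like cells and Sdc3 in intermediate progenitor-like cells.

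Vcan encodes versican, a large lectican known as a matrix cue for migrating cells and growing axons. The gene lies on the minus strand at chr13:89655312-89742509 (mm10, GENCODE annotation), and its nearest neighbour on 1 side is Hapln1, 43659 bases away. Along the excitatory lineage Vcan had 111 CPM in radial glia-like cells, 78.1 CPM in intermediate progenitor-like cells, 103 CPM in migrating neuron-like cells, 572 CPM in deep layer neuron-like cells and 105 CPM in upper layer neuron-like cells. Deep layer neuron-like cells stood far above the other stages, 5.13-fold over radial glia-like cells (interval 4.43 to 5.96), and the other 4 lay within 1.5-fold of each other. Outside it, Vcan had 218 CPM in ganglionic eminence progenitor-like cells, 257 CPM in interneuron-like cells, 263 CPM in striatal neuron-like cells and 684 CPM in Cajal-Retzius cell-like cells. The intervals of Cajal-Retzius cell-like cells (597 to 780 CPM) and deep layer neuron-like cells (543 to 601 CPM) overlapped each other and lay above those of the other 7 classes. Radial glia-like, upper layer neuron-like and migrating neuron-like cells were likewise within each other's intervals.

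Vcan differed between the neuron layers. It had 105 CPM in upper layer neuron-like cells (88 to 125) and 572 CPM in deep layer neuron-like cells, a ratio of 0.18 (0.15 to 0.22). In the first run the values were 99.8 CPM, from 7 UMIs in 17 cells, and 840 CPM, a ratio of 0.12. In the second run they were 105 CPM and 392 CPM, a ratio of 0.27 (0.22 to 0.33), so upper layer neuron-like cells were lower in both runs.

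The level of Vcan was uneven within the deep layer class, and its difference from upper layer neuron-like cells was larger in 1 of its clusters. Its cluster of 451 cells led by Mc4r and Nfe2l3, with Tle4 among its leading genes, had 773 CPM, and its cluster of 176 cells led by Fosl2 and Opcml, with Ldb2 and Fezf2 among its leading genes, had 197 CPM. The ratio was 3.93 (3.36 to 4.61), where 9.12% of all genes measured were at least 1.5-fold higher in the Mc4r cluster and 5.83% were lower. None of the other 5 proteoglycan genes measured there reached 1.5-fold, with ratios between 0.85 for Ncan and 1.31 for Gpc4. In the second run the Mc4r cluster had 647 CPM and the Fosl2 cluster 153 CPM, and in the first run they had 873 CPM and 535 CPM, where the Fosl2 cluster had 17 cells. In the second run, which held 257 of the 274 upper layer neuron-like cells, these had 105 CPM, less than 1.5-fold from the Fosl2 cluster. Over both runs they also had 105 CPM, more than 1.5-fold below the 197 CPM of the Fosl2 cluster. After each cell was thinned to 1000 UMIs, 45.5% of cells in the Mc4r cluster held a Vcan UMI, 17.0% in the Fosl2 cluster and 9.49% in upper layer neuron-like cells; unthinned shares were 78.0%, 44.9% and 28.5%. In microglia-like cells, a class not known for these genes, 1 of 18 cells held a Vcan UMI after thinning, at a median depth of 3880 UMIs per cell against 4182 in deep layer neuron-like cells.

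**Figure D2:**
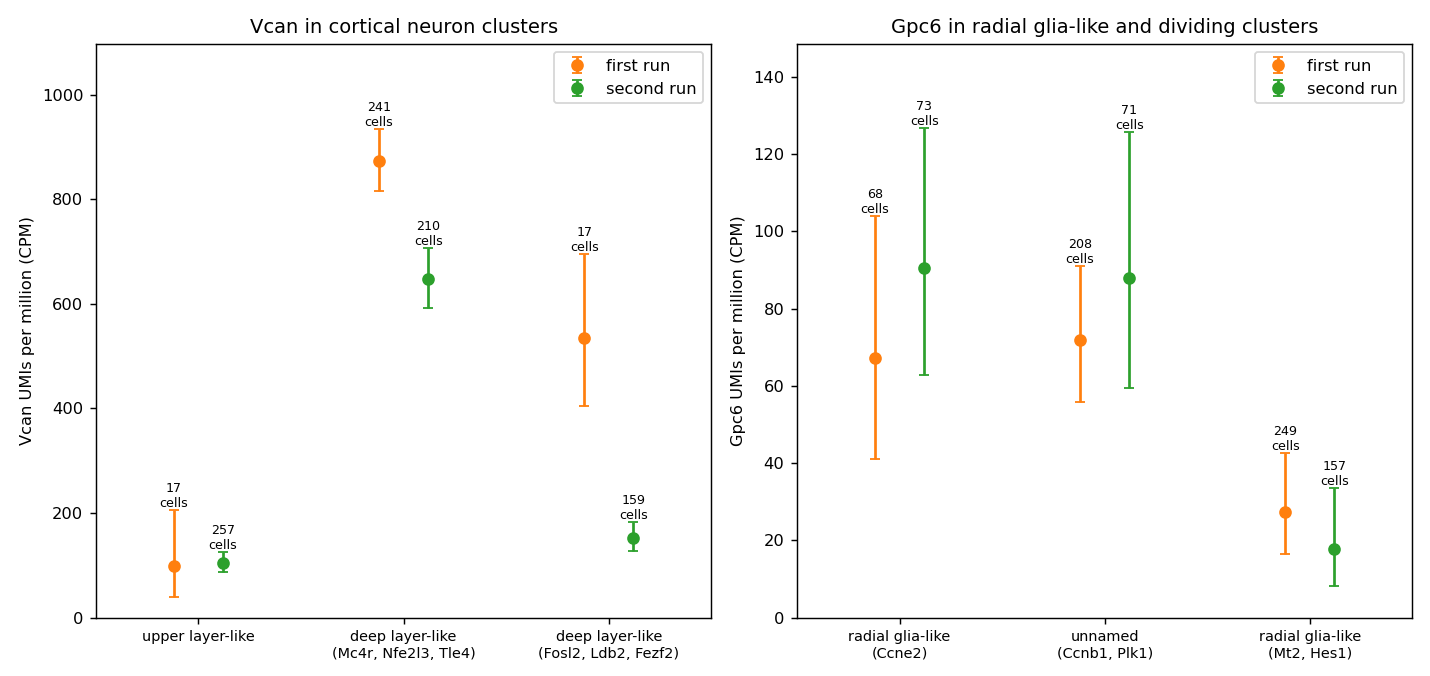
Level of Vcan in clusters of upper and deep layer neuron-like cells (left) and of Gpc6 in radial glia-like and dividing clusters (right), in CPM with 95% counting intervals, by run of cells. Vcan is highest in the Mc4r cluster in both runs, with 873 and 647 CPM, and Gpc6 is lowest in the Mt2 cluster in both runs.

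Ncan and Bcan differed from Vcan and from each other. Ncan, on the minus strand at chr8:70093085-70120873, encodes neurocan, a lectican known from the nervous system. Its level increased along the excitatory lineage, with 234 CPM in radial glia-like cells, 275 CPM in intermediate progenitor-like cells, 437 CPM in migrating neuron-like cells, 491 CPM in deep layer neuron-like cells and 472 CPM in upper layer neuron-like cells. Interneuron-like cells (440 CPM) and striatal neuron-like cells (471 CPM) lay in the same range as the excitatory neurons, and ganglionic eminence progenitor-like cells (227 CPM) in that of the radial glia. The highest and the lowest of the 9 classes were 2.16-fold apart, the narrowest range among the 8 genes. In order of level, the intervals of 7 of 8 neighbouring pairs overlapped, the gap being between Cajal-Retzius cell-like cells (374 CPM) and intermediate progenitor-like cells. In radial glia-like cells Ncan had 182 CPM in the first run and 291 CPM in the second.

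Bcan, on the minus strand at chr3:87987531-88000230, encodes brevican, a short lectican of brain that in the adult surrounds synapses and is made largely by glia. In the annotation its nearest gene on 1 side, 7079 bases away, is Nes, which encodes the neural progenitor filament nestin. Bcan stepped down the excitatory lineage, with 156 CPM in radial glia-like cells (139 to 175), 53.2 CPM in intermediate progenitor-like cells (40.8 to 68.2), 21.04 CPM in migrating neuron-like cells (16.2 to 26.8), 9.11 CPM in deep layer neuron-like cells and 9.85 CPM in upper layer neuron-like cells. These first 3 intervals did not overlap, and the remaining 6 classes all lay at or below 9.96 CPM. Ganglionic eminence progenitor-like cells had 9.05 CPM, a ratio of 0.06 to radial glia-like cells (0.03 to 0.11), so the level in progenitors of the cortex was not shared by those of the eminences. The log2 ratio was -4.11, and with coarser clusters (resolution 0.5) it was -2.24. In the first run of cells Bcan had 119 CPM in radial glia-like cells and 28.7 CPM in intermediate progenitor-like cells, and in the second run 198 CPM and 75.8 CPM. Within the migrating class, the cluster led by Tac2 and Mfap4, with Eomes and Neurod1 among its leading genes, had 35.4 CPM of Bcan and the cluster led by Unc5d 13.4 CPM, a ratio of 2.64 (1.57 to 4.503), where 10.4% of all genes measured were at least 1.5-fold higher and 8.66% lower.

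The share of each lectican among all lectican UMIs changed accordingly. Bcan made up 31.2% of them in radial glia-like cells, 13.1% in intermediate progenitor-like cells, 3.75% in migrating neuron-like cells, 0.85% in deep layer neuron-like cells and 1.68% in upper layer neuron-like cells. The share of Vcan was 17.9% in upper layer neuron-like cells and 53.3% in deep layer neuron-like cells, while that of Ncan was 80.4% and 45.8%.

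Among the glypicans, Gpc2 was higher in neuron classes than in progenitor classes, while Gpc1 was highest in 1 neuron class, Cajal-Retzius cell-like cells. Gpc2, on the minus strand at chr5:138273655-138280005, encodes a glypican known from developing neurons, where it was described on growing axons. Its level was 102 CPM in radial glia-like cells, 233 CPM in intermediate progenitor-like cells, 416 CPM in migrating neuron-like cells, 442 CPM in deep layer neuron-like cells and 424 CPM in upper layer neuron-like cells. Interneuron-like cells had 391 CPM, striatal neuron-like cells 476 CPM and Cajal-Retzius cell-like cells 412 CPM, so the 6 neuron classes lay close together and each above every progenitor class. Ganglionic eminence progenitor-like cells had 210 CPM, 2.05-fold above radial glia-like cells (1.68 to 2.51). The annotation places another gene, Gm43720, over most of Gpc2 on the same strand, and reads from their shared bases cannot be told apart.

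Ncan and Gpc2 followed each other over the classes. Across the 13 named classes, log2(CPM + 10) of Ncan and Gpc2 had a Pearson correlation of 0.92, the highest between any pair of the 8 genes; the classes share 1 library pool and this is a description. The promoters of both are printed with that of Bcan, whose level ran opposite along the lineage, and that of Sdc3, highest in intermediate progenitor-like cells. Each is the 250 bases before the transcript start in RefSeq (GRCm38.p6), 5′ to 3′ on the strand of the gene, and capitals mark CANNTG, the core letters that basic helix-loop-helix factors such as Neurog2 recognise.
Ncan, chr8:70120845-70121094, minus strand: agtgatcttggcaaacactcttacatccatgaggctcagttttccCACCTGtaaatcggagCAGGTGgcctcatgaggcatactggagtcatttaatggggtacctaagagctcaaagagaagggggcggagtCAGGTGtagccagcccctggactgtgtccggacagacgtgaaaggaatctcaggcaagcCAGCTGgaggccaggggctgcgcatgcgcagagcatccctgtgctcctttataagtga
Gpc2, chr5:138279938-138280187, minus strand: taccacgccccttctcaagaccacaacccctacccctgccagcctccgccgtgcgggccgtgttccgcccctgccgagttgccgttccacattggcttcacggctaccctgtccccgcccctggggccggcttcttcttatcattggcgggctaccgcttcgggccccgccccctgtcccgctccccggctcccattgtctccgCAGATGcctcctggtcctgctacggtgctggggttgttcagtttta
Bcan, chr3:88000357-88000606, minus strand: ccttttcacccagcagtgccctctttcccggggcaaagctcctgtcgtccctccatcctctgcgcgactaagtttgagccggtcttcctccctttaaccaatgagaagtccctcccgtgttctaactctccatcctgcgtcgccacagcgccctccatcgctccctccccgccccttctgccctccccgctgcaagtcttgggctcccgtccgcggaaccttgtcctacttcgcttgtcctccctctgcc
Sdc3, chr4:130792287-130792536, plus strand: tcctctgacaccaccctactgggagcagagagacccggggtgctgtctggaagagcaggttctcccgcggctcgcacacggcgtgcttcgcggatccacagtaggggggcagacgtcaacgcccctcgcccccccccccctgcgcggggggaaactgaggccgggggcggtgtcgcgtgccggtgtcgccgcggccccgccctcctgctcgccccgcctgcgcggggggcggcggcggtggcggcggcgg
The Ncan window held 4 matches to CANNTG and the Gpc2 window 1, which reads CAGATG and lies 46 bases before the start, while the Bcan and Sdc3 windows held none. Of 32851 RefSeq promoters cut to the same length, 66.2% held CANNTG and 14.4% held CAGATG on either strand. The Gpc2 and Sdc3 windows each held 3 matches to GGGCGG, the letters bound by Sp1, and the Ncan and Bcan windows 1 each. Of all promoters, 32.7% held GGGCGG at least once. Of the windows not printed, that of Vcan held 1 match to CANNTG and 2 to GGGCGG. That of Gpc4 held 0 and 1. CAGATG is a form of CANNTG, and no GGGCGG match shares bases with a CANNTG match in these windows. The Ncan, Gpc2 and Gpc4 windows reach into the spans of their genes in the GENCODE annotation, where the starts differ from RefSeq. The CAGATG match of Gpc2 lies inside that span, and another gene, Stag3 on the plus strand, begins 234 bases beyond it. A match shows letters and not binding.

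Along the excitatory lineage, Gpc1 was highest at the stage where Gpc2 was lowest; over the 13 named classes their correlation was 0.36. Gpc1, on the plus strand at chr1:92831645-92860779, encodes a glypican of brain that binds Fgf ligands and Slit proteins. It had 321 CPM in radial glia-like cells, 169 CPM in intermediate progenitor-like cells, 178 CPM in migrating neuron-like cells, 120 CPM in deep layer neuron-like cells and 84.6 CPM in upper layer neuron-like cells. Ganglionic eminence progenitor-like cells, at 287 CPM (255 to 323), overlapped the interval of the radial glia (295 to 347), and interneuron-like cells had 192 CPM. Cajal-Retzius cell-like cells were highest with 557 CPM (479 to 645), above every other class. In radial glia-like cells Gpc1 had 395 CPM in the first run and 237 CPM in the second. The first run held 287 of the 300 ganglionic eminence progenitor-like cells. Gpc1 had 288 CPM in them, below the 395 CPM of radial glia-like cells in that run, so the overlap holds for both runs pooled. Antisense genes and the end of Ankmy1 overlap Gpc1 in the annotation, and whether counting used strand is not given.

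Gpc4 was highest in radial glia-like and intermediate progenitor-like cells, followed by deep layer neuron-like cells. Gpc4, on the minus strand at chrX:52053021-52165252 beside Gpc3, encodes a glypican known from neural progenitors and, in later brain, as a signal from astrocytes to synapses. It had 118 CPM in radial glia-like cells, 129 CPM in intermediate progenitor-like cells, 30.4 CPM in migrating neuron-like cells, 80.9 CPM in deep layer neuron-like cells and 41.0 CPM in upper layer neuron-like cells, so migrating neuron-like cells held the lowest level of the lineage, with an interval (24.6 to 37.2) that overlapped that of upper layer neuron-like cells (30.5 to 54.1). Outside the lineage it had 35.2 CPM in ganglionic eminence progenitor-like cells, 13.3 CPM in striatal neuron-like cells and 12.3 CPM in interneuron-like cells. Of its 21 UMIs in interneuron-like cells, 16 were in the cluster led by Maf and Lhx6 (26.0 CPM), against 1 in the cluster led by Sp8 (1.91 CPM), a ratio of 13.6 with a wide interval (2.11 to 569.6) and too few UMIs to be measured.

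Gpc6, on the plus strand at chr14:116925315-117976544, encodes a glypican related to Gpc4 that is also known as an astrocyte signal to synapses. It was the scarcest of the 8 genes, with 414 UMIs in all cells. Its level was 43.7 CPM in radial glia-like cells, 26.6 CPM in intermediate progenitor-like cells, 15.5 CPM in migrating neuron-like cells, 7.97 CPM in deep layer neuron-like cells and 2.46 CPM in upper layer neuron-like cells, the last from 3 UMIs. All 8 neighbouring pairs in its order of classes had overlapping intervals, while upper layer neuron-like and radial glia-like cells were apart (ratio 0.06, 0.01 to 0.17).

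Within the radial glia, Gpc6 differed between clusters. The cluster led by Ccne2, a cyclin of the entry into DNA replication, had 80.3 CPM and the cluster led by Mt2 and Hes1 had 23.3 CPM, a ratio of 3.45 (2.15 to 5.66). An unnamed cluster of 279 cells led by Ccnb1 and Plk1, genes of mitosis, in which all 12 radial glia markers were raised, had 76.1 CPM, a ratio of 3.27 (2.13 to 5.17) to the Mt2 cluster. In the first run the Ccne2, Ccnb1 and Mt2 clusters had 67.3, 71.9 and 27.3 CPM, and in the second run 90.6, 88.0 and 17.7 CPM. Of these by-run comparisons with the Mt2 cluster, the Ccnb1 cluster in the first run alone held 50 UMIs in sum. Of all genes measured, 10.7% were at least 1.5-fold higher and 10.1% lower in the Ccne2 cluster, and 8.14% higher and 9.40% lower in the Ccnb1 cluster. No other gene of the 8 was 1.5-fold higher in either cluster, and in the Ccne2 cluster Gpc2 (0.66, 0.47 to 0.92) and Sdc3 (0.60, 0.34 to 1.02) were lower. By run, first and second, the ratio of Gpc2 was 0.58 and 0.73 and that of Sdc3 0.31 and 0.75, Sdc3 with under 50 UMIs in each run, so neither reached the limit in the second run. Cells of the dividing clusters were deeper, with medians of 4529 and 4398 UMIs against 2602 in the Mt2 cluster, and at 1000 UMIs per cell 10.6% of Ccne2, 3.94% of Ccnb1 and 1.97% of Mt2 cluster cells held a Gpc6 UMI (intervals 6.08 to 16.9%, 1.98 to 6.94% and 0.85 to 3.85%), beside 26.95%, 25.8% and 3.94% unthinned.

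**Figure D3:**
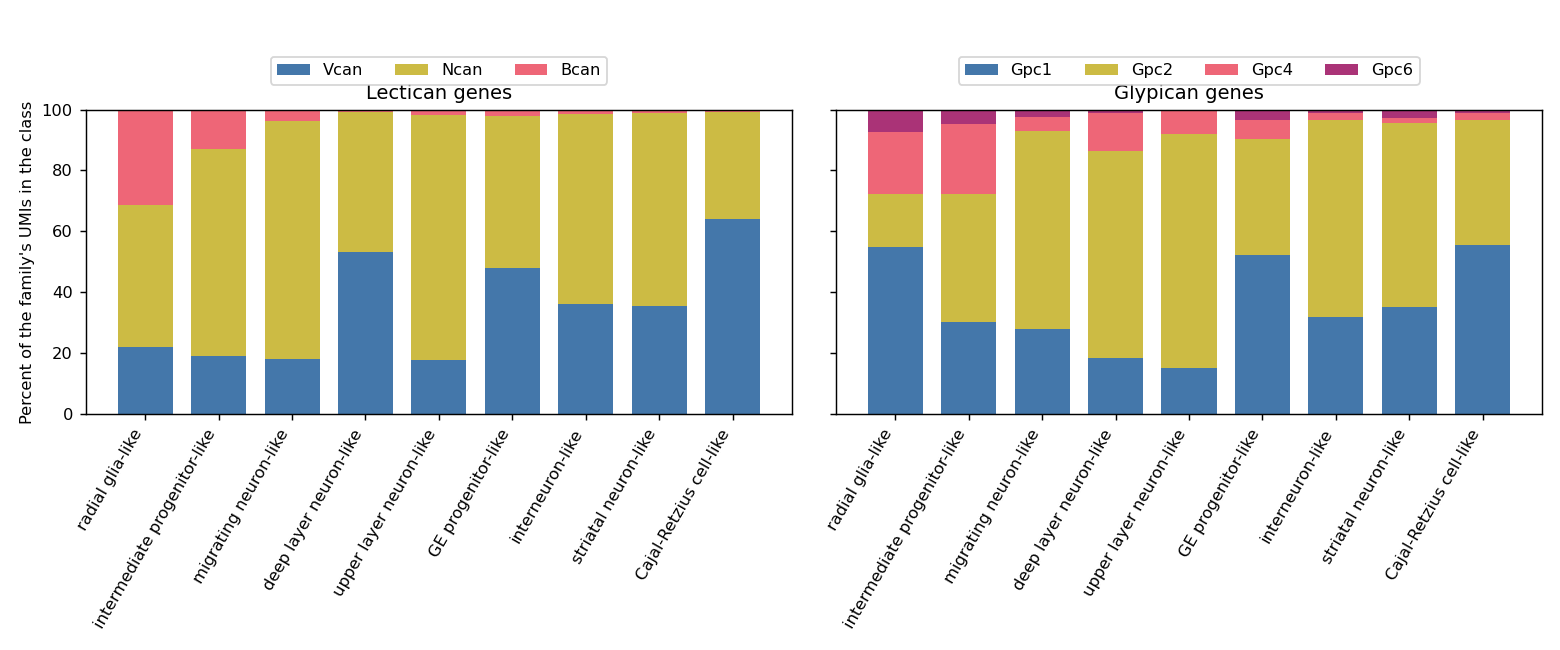
Share of each gene among the UMIs of the 3 lecticans (left) and of the 4 glypicans (right) in 9 cell classes, in percent. Gpc2 takes 17.5% of glypican UMIs in radial glia-like cells and 67.9% in deep layer neuron-like cells, and Vcan 53.3% of lectican UMIs in deep layer neuron-like cells.

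The share of each glypican among glypican UMIs was compared between classes and changed along the lineage. The share of Gpc2 among glypican UMIs was 17.5% in radial glia-like cells (Clopper-Pearson interval 15.3 to 19.9%), 41.8% in intermediate progenitor-like cells, 64.9% in migrating neuron-like cells, 67.9% in deep layer neuron-like cells and 76.8% in upper layer neuron-like cells. That of Gpc1 was 54.8%, 30.3%, 27.9%, 18.5% and 15.3% in the same order. A share also depends on the other genes: that of Gpc1 fell from intermediate progenitor-like to migrating neuron-like cells, while its level was 169 and 178 CPM. Between interneuron-like and ganglionic eminence progenitor-like cells the share of Gpc2 was 64.9% and 38.1%. In Cajal-Retzius cell-like cells the shares of Gpc1 and Gpc2 were 55.6% and 41.0%. These shares are among the UMIs of the 4 listed glypicans, without Gpc3, which also has a row in the matrix.

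Sdc3, on the plus strand at chr4:130792537-130826319, encodes syndecan-3, the syndecan of neural tissue and a receptor for the growth factor pleiotrophin. It was highest in intermediate progenitors, with 40.5 CPM in radial glia-like cells, 277 CPM in intermediate progenitor-like cells, 128 CPM in migrating neuron-like cells, 195 CPM in deep layer neuron-like cells and 141 CPM in upper layer neuron-like cells. The interval of intermediate progenitor-like cells (248 to 309 CPM) overlapped that of no other of the 9 classes. Intermediate progenitor-like cells had 236 CPM against 34.3 CPM in radial glia-like cells in the first run, and 315 CPM against 47.6 CPM in the second. After thinning to 1000 UMIs, 22.4% of intermediate progenitor-like cells and 2.93% of radial glia-like cells held an Sdc3 UMI, and unthinned 48.8% and 10.6%, at median depths of 2873 and 3058 UMIs. Interneuron-like cells had 111 CPM and ganglionic eminence progenitor-like cells 54.3 CPM. Among interneurons the Sst cluster had 164 CPM and the Sp8 cluster 86.0 CPM, a ratio of 1.91 (1.32 to 2.78). Of all genes measured there, 11.9% were 1.5-fold higher and 11.9% lower. The first run gave a ratio of 1.96 (1.21 to 3.15). The second gave 2.71 with a wide interval (1.10 to 8.68), from 5 UMIs in the Sp8 cluster.

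A cluster of 233 cells led by Rrm2 and Neil3, in which 9 of 10 intermediate progenitor markers were raised but which stayed unnamed, may be set beside the named class. It had 150 CPM of Sdc3 against 277 CPM, 72.5 CPM of Gpc4 against 129 CPM and 143 CPM of Vcan against 78.1 CPM, with ratios of 0.54, 0.56 and 1.84, where 14.6% of all genes measured were 1.5-fold higher and 12% lower. In the first and second run the ratio of Sdc3 was 0.62 and 0.52, that of Gpc4 0.66 and 0.55, and that of Vcan 1.96 and 1.204.

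An unnamed cluster of 170 cells led by Olig2, Olig1 and Aldh1l1 differed from the Mt2 cluster of radial glia-like cells in the level of 4 of these genes, while Gpc1 (0.99), Gpc2 (1.08) and Gpc4 (0.96) were between the limits. It had 219 and 113 CPM of Vcan (ratio 1.94, 1.51 to 2.48), 400.2 and 243 CPM of Ncan (1.65), 96.3 and 47.4 CPM of Sdc3 (2.03) and 61.4 and 147 CPM of Bcan (0.42, 0.28 to 0.60), where 8.44% of all genes measured were 1.5-fold higher and 9.99% lower. In the second run, where the Olig2 cluster had 18 cells, Vcan (2.91) and Ncan (2.56) were higher as well, while Bcan had 232 and 185 CPM and Sdc3, with under 50 UMIs, 64.5 and 53.1 CPM; the ratio of Sdc3 was 2.35 in the first run.

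The comparisons of the classes were then taken across the 8 genes. Members reaching the limit are given with the share of all measured genes that reached it in the same direction. In intermediate progenitor-like over radial glia-like cells, 2 of 8 genes were higher (Sdc3 6.84-fold, interval 5.31 to 8.90, and Gpc2 2.28-fold, 1.89 to 2.76), against 13.4% of all genes, and 3 were lower (Bcan 0.34, 0.25 to 0.45, Gpc1 0.53, 0.45 to 0.62, and Gpc6 0.61, 0.39 to 0.93), against 19.9%; in either direction it was 5 of 8, against 33.3%. The call of Gpc6 was lost in the first run, at 0.82, and with equal weight per cell, while the ratio of Sdc3 lay between 3.41 and 7.91 under all alternatives, the lowest with clusters drawn on a random 50% of UMIs. In migrating neuron-like over intermediate progenitor-like cells, 2 of 8 were higher (Gpc2 1.78 and Ncan 1.59), against 13.3%, and 4 were lower (Gpc4 0.24, 0.18 to 0.31, Bcan 0.40, Sdc3 0.46 and Gpc6 0.58), against 15% of all genes; in either direction it was 6 of 8, against 28.3%. Other ways of clustering ended the calls of Ncan (lowest ratio 1.23), Gpc2 (1.33) and Gpc6 (0.93 at the closest to 1).

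Neurons and radial glia were further apart. In deep layer neuron-like over radial glia-like cells, 4 of 8 genes were higher (Vcan 5.13, Sdc3 4.81, Gpc2 4.32 and Ncan 2.10), against 24.1% of all genes, and 3 were lower (Bcan 0.06, Gpc6 0.18 and Gpc1 0.38), against 32.1%; in either direction it was 7 of 8, against 56.2%. In upper layer neuron-like over radial glia-like cells, 3 of 8 were higher (Gpc2 4.14, Sdc3 3.48 and Ncan 2.02), against 19.2%, and 4 were lower (Bcan 0.06, Gpc6 0.06, Gpc1 0.26 and Gpc4 0.35), against 33.8%; in either direction it was 7 of 8, against 53%. Both comparisons share the radial glia-like cells. Under the alternatives the ratio of deep layer neuron-like over radial glia-like cells lay between 3.04 and 6.12 for Vcan and between 2.83 and 6.37 for Sdc3. In upper layer neuron-like over deep layer neuron-like cells, none of 6 measured genes was higher, against 6.4% of all genes, and 2 were lower, against 13.4% lower and 19.8% in either direction: Vcan (0.18) and Gpc4 (0.51, 0.37 to 0.69). Ncan (0.96, 0.87 to 1.06) and Gpc2 (0.96, 0.86 to 1.07) had intervals that reach neither 1.5-fold limit. Gpc4 had 37.5 CPM in upper and 76.1 CPM in deep layer neuron-like cells in the second run, but 99.8 CPM, from 7 UMIs, and 87.9 CPM in the first run, where its log2 ratio to radial glia-like cells was also only -0.04.

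**Figure D4:**
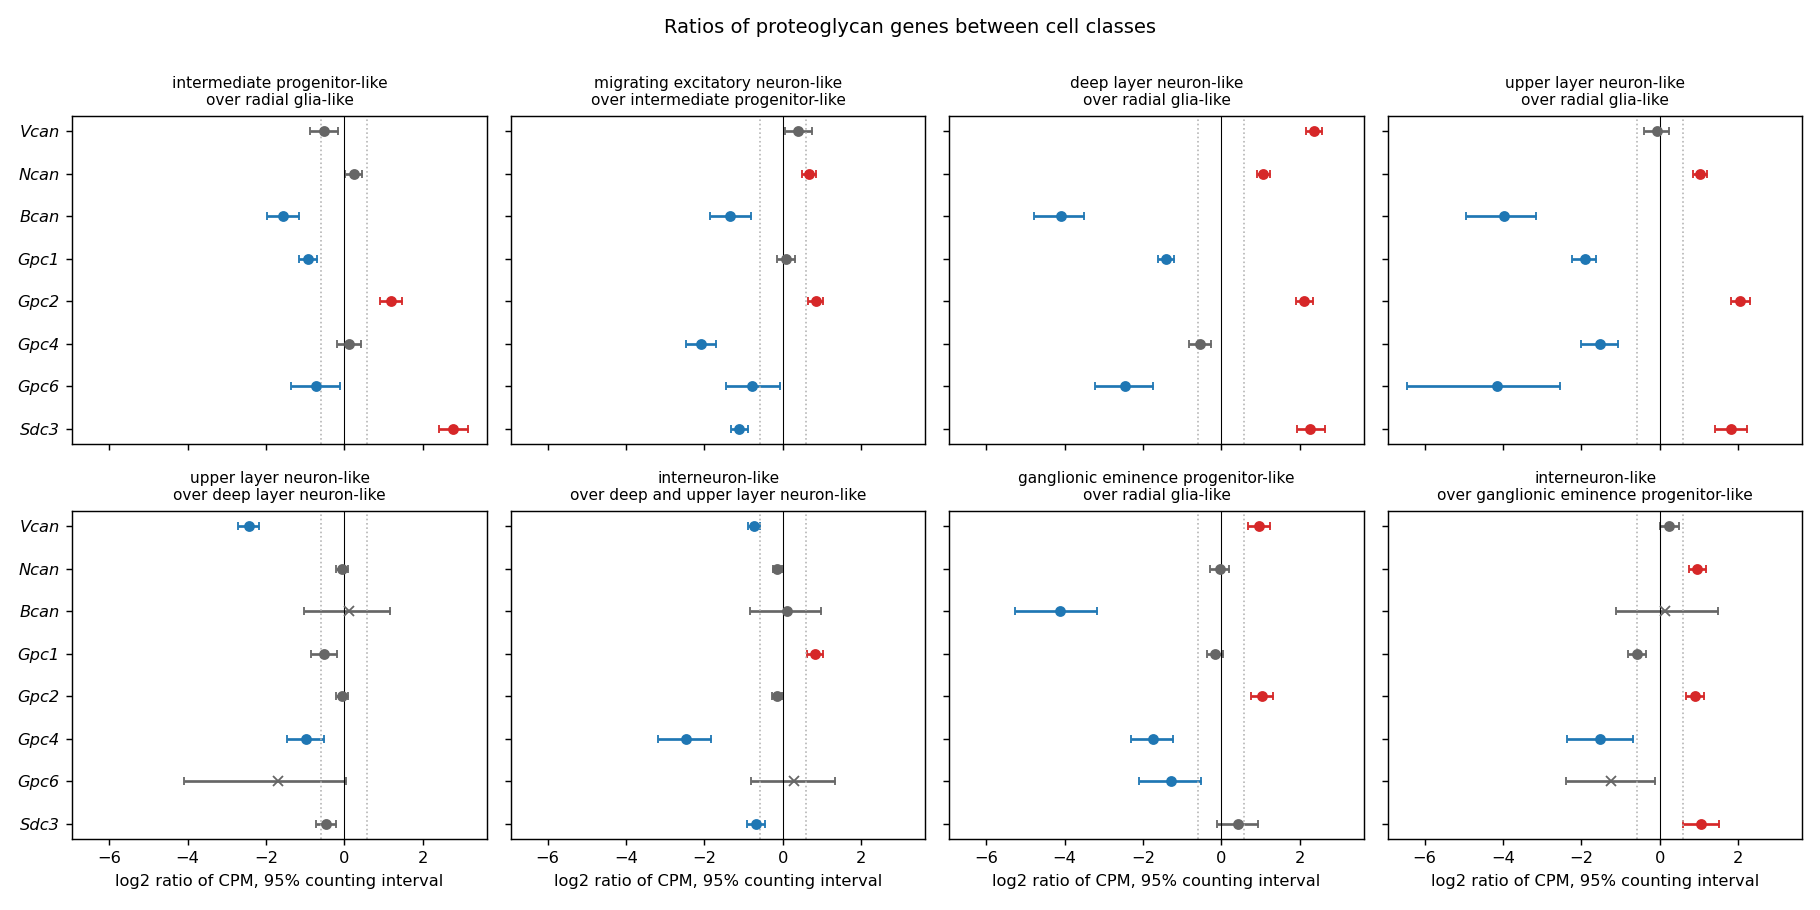
Log2 ratio of CPM of each gene in 8 comparisons of cell classes, with 95% counting intervals; dotted lines mark 1.5-fold in either direction. Red points are at least 1.5-fold higher, blue points lower, grey points between the limits, and crosses genes with under 50 UMIs in sum. Sdc3 in intermediate progenitor-like over radial glia-like cells (6.84-fold) and Bcan in deep layer neuron-like, upper layer neuron-like and ganglionic eminence progenitor-like over radial glia-like cells (each 0.06) lie far from the limits.

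Interneurons were set against the cortical neurons and against progenitors of the eminences. In interneuron-like over deep and upper layer neuron-like cells, 1 of 7 measured genes was higher (Gpc1 1.76, 1.52 to 2.04), against 11.8% of all genes, and 3 were lower (Gpc4 0.18, 0.11 to 0.28, Vcan 0.60, 0.54 to 0.67, and Sdc3 0.63, 0.53 to 0.74), against 13.7%; in either direction it was 4 of 7, against 25.5%. Gpc4 kept its call in both runs. By run, first and second, the ratio of Vcan was 0.32 and 0.94, that of Sdc3 was 0.47 and 0.83, and that of Gpc1 was 1.43 and 1.76, so these calls rest on 1 run each. Vcan stood at 572 CPM in deep and 105 CPM in upper layer neuron-like cells, with interneuron-like cells between them at 257 CPM. Its ratio to the pooled neurons thus does not hold for upper layer neuron-like cells alone. Among interneurons the Maf cluster had 190 CPM of Vcan and the Sp8 cluster 304 CPM, a ratio of 0.62 (0.49 to 0.80), where 7.29% of all genes measured were 1.5-fold higher and 7.39% lower; the first run gave 0.58 and the second 0.89, where both clusters held 48 UMIs in sum.

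In ganglionic eminence progenitor-like over radial glia-like cells, 2 of 8 genes were higher (Gpc2 2.05 and Vcan 1.96, 1.61 to 2.38), against 13.2% of all genes, and 3 were lower (Bcan 0.06, Gpc4 0.30 and Gpc6 0.41), against 22.5%; in either direction it was 5 of 8, against 35.8%. The call of Vcan was lost under 2 alternatives, with 1.33 as its lowest ratio, and the ratio of Gpc4 reached 0.59 at the closest to 1. In interneuron-like over ganglionic eminence progenitor-like cells, 3 of 6 were higher (Sdc3 2.05, 1.51 to 2.83, Ncan 1.94 and Gpc2 1.86), against 22% of all genes, and 1 was lower (Gpc4 0.35, 0.19 to 0.62), against 19.4%; in either direction it was 4 of 6, against 41.4%. Alternatives took Ncan to 1.44 and Sdc3 to 1.49 at the lowest. Gpc2 was thus higher in neurons than in progenitors on the excitatory and on the inhibitory side, and so was Ncan.

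Genes that build, cut or bind the same matrix were taken from 7 lists of 123 genes, 112 of them in the matrix. Values of these genes are given over both runs only. Upper layer neuron-like and ganglionic eminence progenitor-like cells each came mostly from 1 run, so comparisons with them are partly comparisons between runs. In intermediate progenitor-like over radial glia-like cells, 3 of 54 measured genes were higher and 22 lower, against 13.4% and 19.9% of all genes. Of other core proteins, 0 of 10 were higher and 8 lower (median log2 ratio -1.84, beside -0.03 over all genes), among them Cspg5, neuroglycan C (12.9 and 70.9 CPM), and Podxl, podocalyxin (7.72 and 64.0 CPM). Tnc, tenascin-C, a partner of lecticans in the stem cell niche, had 34.3 CPM in intermediate progenitor-like and 206 CPM in radial glia-like cells (ratio 0.17, 0.12 to 0.23). The genes that were higher were Ust, which sulfates chondroitin and dermatan chains (56.6 and 4.27 CPM, 13.3-fold, 6.36 to 32.0), Hs3st1, a heparan sulfotransferase (148 and 30.4 CPM, 4.85-fold, 3.58 to 6.67), and Tmem2, a hyaluronidase of the cell surface (130 and 55.5 CPM, 2.34-fold). In migrating neuron-like over intermediate progenitor-like cells, 11 of 56 were higher, with Cntn2, a contactin of axons, at 725 and 62.6 CPM, and Hs6st2, a heparan 6-O-sulfotransferase, at 107 and 17.2 CPM, and 15 were lower, with Ust at 27.8 and 56.6 CPM, against 13.3% and 15% of all genes.

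Deep layer neuron-like over radial glia-like cells had 22 of 68 pathway genes higher and 25 lower, against 24.1% and 32.1% of all genes. Spock1, testican-1, had 160 and 6.40 CPM (25.0-fold, 14.2 to 48.7), and Hs3st4, another heparan 3-O-sulfotransferase, had 367 and 8.53 CPM (43.0-fold, 26.3 to 75.5). Lower were Tnc, with 6.07 and 206 CPM, and Fgfr3, an Fgf receptor, with 14.8 and 279 CPM. Upper layer neuron-like over radial glia-like cells had 11 of 53 genes higher and 22 lower, against 19.2% and 33.8% of all genes, with Col18a1, collagen XVIII, listed at 0 UMIs in upper layer neuron-like cells and 82 in radial glia-like cells. In upper layer neuron-like over deep layer neuron-like cells, 12 of 56 were higher and 18 lower, against 6.4% and 13.4% of all genes. Of 14 heparan sulfate synthesis genes, 2 were higher, 5 lower and 7 between the limits: among the lower ones Hs3st4 had 17.2 and 367 CPM (ratio 0.05, 0.03 to 0.07), while the higher ones were Hs6st2, with 351 and 131 CPM (2.69, 2.33 to 3.11) and Hs3st1, with 52.5 and 16.7 CPM (3.15, 2.11 to 4.73). Ptn, the pleiotrophin that Sdc3 binds, had 53.4 and 4.18 CPM (12.8-fold, 6.69 to 26.9), and Ptprz1, a receptor proteoglycan for it, 851 and 539 CPM (1.58, 1.46 to 1.71).

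Interneuron-like over deep and upper layer neuron-like cells had 11 of 65 pathway genes higher and 25 lower, against 11.8% and 13.7% of all genes, with 8 of 15 heparan sulfate synthesis genes among the lower ones. Adamts5, a protease that cuts lecticans, had 25.8 and 1.56 CPM (16.6-fold, 7.03 to 47.5), Dsel, an epimerase of dermatan chains, 52.1 and 17.9 CPM (2.91-fold), and Ptprz1 144 and 638 CPM (ratio 0.23). Ganglionic eminence progenitor-like over radial glia-like cells had 5 of 53 higher and 30 lower, against 13.2% and 22.5% of all genes, with 8 of 9 other core proteins among them, with Tnc at 3.02 and 206 CPM and Sdc2, another syndecan, at 2.01 and 38.4 CPM. Sulf2, which removes heparan 6-O-sulfates, was higher there, at 59.3 and 9.07 CPM (6.54-fold). Interneuron-like over ganglionic eminence progenitor-like cells had 15 of 44 higher and 10 lower, against 22% and 19.4% of all genes, with Cspg5 at 66.8 and 14.1 CPM and Mdk, midkine, at 141 and 692 CPM. Of the link protein genes and glypicans that neighbour the 8 genes in the annotation, Hapln2, Hapln4 and Gpc5 were not analysed here.

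For each of the 8 genes, the genes most like it across the 13 named classes were found among 7458 genes with at least 500 UMIs, by Pearson correlation of log2(CPM + 10). Ncan was closest to Sept3 (0.99) and Gpc2 to Elavl3 (0.98), an RNA-binding protein of neurons, and Atcay (0.97). Bcan was closest to Ptx3 (0.96), Tfap2c (0.95) and Cdon (0.90). Sdc3 was closest to Idnk (0.92) and Numbl (0.87), Vcan to Meg3 (0.87), Gpc1 to Msi2 (0.90), Gpc4 to Hsp90ab1 (0.87) and Gpc6 to Tmod3 (0.92). The classes differ in size from 18 to 936 cells, and the smallest weigh as much as the largest in these values.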

How the data were processed

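RNA of single mouse forebrain cells was counted with the SureCell workflow, per the labels' protocols. The authors deposited raw UMI counts per gene and cell, not normalized, as 1 matrix of 16 samples with no map from cells to samples. The genome build was mm10 per the submitters' processing notes; the sources used here do not give the aligner, counting tool, annotation or strand setting. Every gene in the deposited counts is in at least 5 cells.

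The genes, lists and comparisons were chosen with earlier results of these data known. Genes named from the pathway lists were the 2 with the highest and the 2 with the lowest ratio per list past 1.5-fold, of which some are printed; for likeness, the 3 highest correlations per gene.

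Cells with over 10% globin UMIs were set apart. For clustering, each cell was scaled to 10000 and taken to log1p; 2000 variable genes without the members, the pathway genes, Rpl and Rps genes and sex genes, 30 principal components, a shared-neighbour graph of 15 nearest cells and Leiden at resolution 1 (seed 1, 5 iterations; leidenalg 0.10.2, igraph 0.11.9, Python 3.11.15, scikit-learn 1.9.0, scipy 1.17.1) gave the clusters. Names went to the class whose markers had the largest mean log2 fold, provided it reached 0.5, at least 3 markers held by no other list were raised 1.5-fold with 10 UMIs, a marker stood among its 20 leading genes, and the 10 genes that led it did not hold more markers of a different class or start with one. These naming limits, and the runs of cells (from Y-linked UMIs and 11 genes out of alphabetical order), were set after the data were seen. Doublets were kept in the main values. In a ratio, a class with 0 UMIs entered at 3 counts. Some marker and leading genes are not reported here. The ratio code was tested on simulated data.

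Depth limits precision: a class of 274 cells held 1218187 UMIs, so 3 UMIs equal 2.46 CPM there. Positions are from GENCODE on mm10, and promoters from RefSeq, found for 6 of the genes. The alternative settings are named in the closing section.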

Additional observations from a re-analysis of the deposited data

How the results depend on the processing

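Of 40 ratios of the 8 genes past 1.5-fold, 28 kept that limit under every alternative that could be computed and 12 lost it under at least 1. Among 34 of them measured in both runs, 33 had the same direction in each. In 550 recomputed ratios the direction turned once: Gpc4 in upper layer neuron-like over deep layer neuron-like cells had a log2 ratio of 0.18 in the first run, which held 17 upper layer neuron-like cells, and -0.98 in all cells.

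Numbers of the 8 genes at least 1.5-fold apart moved as follows. With a 2-fold limit they were 3 in place of 5 in intermediate progenitor-like over radial glia-like cells, 3 in place of 6 in migrating neuron-like over intermediate progenitor-like cells, 1 in place of 2 in upper layer neuron-like over deep layer neuron-like cells, 1 in place of 4 in interneuron-like over deep and upper layer neuron-like cells, and 2 in place of 4 in interneuron-like over ganglionic eminence progenitor-like cells. At resolution 0.5, migrating neuron-like over intermediate progenitor-like cells gave 3, interneuron-like over deep and upper layer neuron-like cells 2, and interneuron-like over ganglionic eminence progenitor-like cells 7. Clustering on 50% of the UMIs, drawn at random, and taking values from those not drawn gave 3 in migrating neuron-like over intermediate progenitor-like cells. Interneuron-like over deep and upper layer neuron-like cells gave 2 at resolution 2, 2 once 289 cells scored highest as doublets were removed, and 2 in the second run. Upper layer neuron-like over radial glia-like cells gave 4 in place of 7 in the first run, and upper layer neuron-like over deep layer neuron-like cells 4 with equal weight per cell. The cause of these moves was not tested. The remaining settings (15 components, 1000 features, genes of the lists as features, cells of at least 2000 UMIs, totals without Rpl and Rps genes, ratios over the median ratio, and, chosen after seeing the data, names without a marker among the leading genes) left each of these numbers within 1.5 times. Pathway genes apart moved over 1.5 times from a minimum of 50 to one of 10 UMIs in intermediate progenitor-like over radial glia-like cells (25 to 46), migrating neuron-like over intermediate progenitor-like cells (26 to 46), upper layer neuron-like over radial glia-like cells (33 to 55) and interneuron-like over ganglionic eminence progenitor-like cells (25 to 45). With a 2-fold limit they were 16 in place of 26 in migrating neuron-like over intermediate progenitor-like cells, 15 in place of 30 in upper layer neuron-like over deep layer neuron-like cells, and 16 in place of 25 in interneuron-like over ganglionic eminence progenitor-like cells. No paired analysis was possible because all samples form 1 group in 1 pooled matrix.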

Other observations

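The 2 runs of cells differed in several of these genes within the same class. In radial glia-like cells, the second run over the first had ratios of 1.67 for Bcan (1.31 to 2.12) and 1.59 for Ncan (1.31 to 1.94), and of 0.60 for Gpc1 (0.50 to 0.71) and 0.60 for Vcan (0.45 to 0.81), while Gpc2 had 103 and 102 CPM. Of all genes measured there, 14.4% were at least 1.5-fold apart between the runs. In deep layer neuron-like cells Vcan had 392 CPM in the second run and 840 CPM in the first, a ratio of 0.47 (0.42 to 0.52), where 14.5% of all genes were apart. The clusters that make up the class differ between the runs: the Mc4r cluster held 210 and the Fosl2 cluster 159 cells in the second run, and 241 and 17 in the first. Within the Mc4r cluster Vcan had 647 CPM in the second run and 873 CPM in the first, which is under 1.5-fold apart. The first run was set to end at the last cell with a Y-linked UMI, so a difference in these UMIs follows from how the runs were drawn. The runs also differ in the makeup of classes, and the labels tie neither run to a sample.

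Basal forebrain neuron-like cells, a class of 47 cells, all in the first run, had 589 CPM of Vcan (488 to 706).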
